A study of Mus musculus with 6 samples.

Results

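Cytosolic ribosomal protein genes were followed in aortic endothelial cells (EC) that overexpressed Meis1, a homeobox transcription factor of the TALE class. The members were chosen by symbol. They are the genes named Rpl or Rps followed by a number, with or without a suffix letter, together with Rplp0, Rplp1, Rplp2 and Rpsa, while rows named -ps (processed pseudogenes) and the Rps6k kinases were left out. This gave 89 of the 54429 genes listed. RefSeq holds an entry for all 89 and describes 84 of them as protein-coding and 5 as pseudogenes (Rps4l, Rps12l1, Rpl6l, Rps3a2 and Rps3a3). The cells were wild-type primary aortic EC of adult C57BL/6 mice, bought from a supplier, and were transduced with a lentiviral Meis1-OE vector or with a YFP-CTRL vector for 48 h. Transduced cells of both conditions were selected by FACS at 72 h for YFP, CD31 and VEC, grown on to confluency and used for ribodepleted RNA-seq, with 3 libraries per condition that the study describes as independent replicates. The sources used here do not say whether these came from separate lots of cells or animals, nor which promoter drives Meis1, so p-values measure the spread between these cultures.

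Each cytosolic ribosome carries one copy of nearly every ribosomal protein, so that cells make the proteins of both subunits in step. Their mRNAs are short and abundant and start with a 5′ terminal oligopyrimidine (TOP) tract, a run of C and T at the cap, through which mTORC1 and the RNA-binding protein Larp1 control their translation and stability. Transcription of the genes for ribosome assembly is a well-known response to Myc. Ribosomal protein genes have left many processed pseudogenes in the mouse genome, and short reads from a member and its copies are hard to tell apart.

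The 6 libraries held between 34176592 and 47956569 counts. Levels are given as CPM, TMM-normalized counts scaled to library size, and values of the 3 libraries of a condition are listed in the order A, B, C. Meis1 ran from 2959 to 3476 CPM under Meis1-OE and stayed between 1.15 and 1.87 CPM in the YFP-CTRL condition. The summed level of 6 endothelial markers was 2683 to 3281 CPM under Meis1-OE and 3822 to 5292 CPM under YFP-CTRL. In edgeR 1 of these markers, Tek, was called lower and 0 higher, where 2.73% of all genes were called lower. Of the 6 markers, 4 had negative and 2 positive log2 fold changes, the highest at 0.11. DESeq2 called 3 of them lower and 0 higher, against 6.13% of all genes lower. Fibroblast and smooth muscle markers summed to 13.1 to 15.5 CPM under Meis1-OE and 33.9 to 51.8 CPM under YFP-CTRL, with Pdgfra and Acta2 as the 2 of 7 that were tested. The macrophage markers C1qa, C1qb, Tyrobp and Adgre1 had 0 counts in every library, and the whole list of 6 summed to at most 0.881 CPM. YFP-CTRL libraries differed in the growth-related genes. The proliferation score, the mean log2(CPM + 1) of 15 S and G2/M phase genes, was 4.80, 5.53 and 6.71 for YFP-CTRL, and 6.73, 6.72 and 6.79 for Meis1-OE. All 15 of these genes had positive log2 fold changes and 0 were called by edgeR, with 2 at an unadjusted p under 0.05 and 1 called by DESeq2, but 14 were called higher without YFP-CTRL library C, a setting that called 16.5% of all genes higher.

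Of the 89 members, 82 had enough counts to be tested. The other 7 were Rpl10l, Rpl32l, Rpl39l and Rps4l with 0 counts in every library, and Rpl3l, Rpl6l and Rps12l1 with at most 9 counts in any library. A count of 0 allows up to 3 counts per library, and this limit covers counting error only.

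Mean levels of most ribosomal protein genes were lower in Meis1-OE EC, by small amounts for nearly all of them. Of the 82 tested members, 77 had a negative and 5 a positive log2 fold change, with a median of -0.32 against a median of 0.01 over all 16065 genes tested. At an adjusted p under 0.05 in edgeR (quasi-likelihood test, Benjamini-Hochberg adjustment over all genes tested), 13 members (15.9% of those tested) were lower and 0 were higher, where 2.73% of all tested genes were called lower and 4.14% higher. At an unadjusted p under 0.05, 49 members were lower and 0 were higher, against 13.4% of all genes lower. All 3 Meis1-OE libraries lay below all 3 YFP-CTRL libraries for 57 members (69.5%), against 15.9% of all genes, and for 0 members did they lie above. Using DESeq2 instead, 30 of the 83 members that received an adjusted p were lower and 0 were higher, against 6.13% of all genes lower, and all 13 genes called by edgeR were among them. In bulk RNA, less of a transcript per cell and fewer cells that carry it cannot be told apart.

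The direction was steadier than the calls. Without any 1 of the Meis1-OE libraries, or without YFP-CTRL library B, 0 members passed the threshold, although the median log2 fold change stayed between -0.31 and -0.28. Few genes of any kind were called lower in those fits, 0.417%, 0.0975% and 0.109% of all genes without Meis1-OE library A, B and C and 0.401% without YFP-CTRL library B. Without YFP-CTRL library C, 37 members passed (45.1%), the 13 included, where 15.2% of all genes were called lower. Without YFP-CTRL library A, 13 passed (15.9%), of which 7 were among the original 13, against 2.63% of all genes. With the proliferation score as a covariate 0 members passed in edgeR, against 1.67% of all genes, 81 of the 82 were negative and the median was -0.36. The score was 6.72 to 6.79 under Meis1-OE, and only YFP-CTRL library C, at 6.71, came near. Score and condition were thus hard to separate. Every value given with this covariate leans on that library and on the slope among the YFP-CTRL libraries. When counts were scaled to library totals, the median of all genes moved to 0.15 and that of the members to -0.17, and 0 members passed, against 1.12% of all genes. On that scale 67 of the 82 members had a negative log2 fold change. Relative to all genes the members were then at -0.32, and 77 lay below the median of all genes. Each of the 13 called genes kept a negative log2 fold change under the 16 alternatives and lost its call under 6 to 11 of them.

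**Figure D1:**
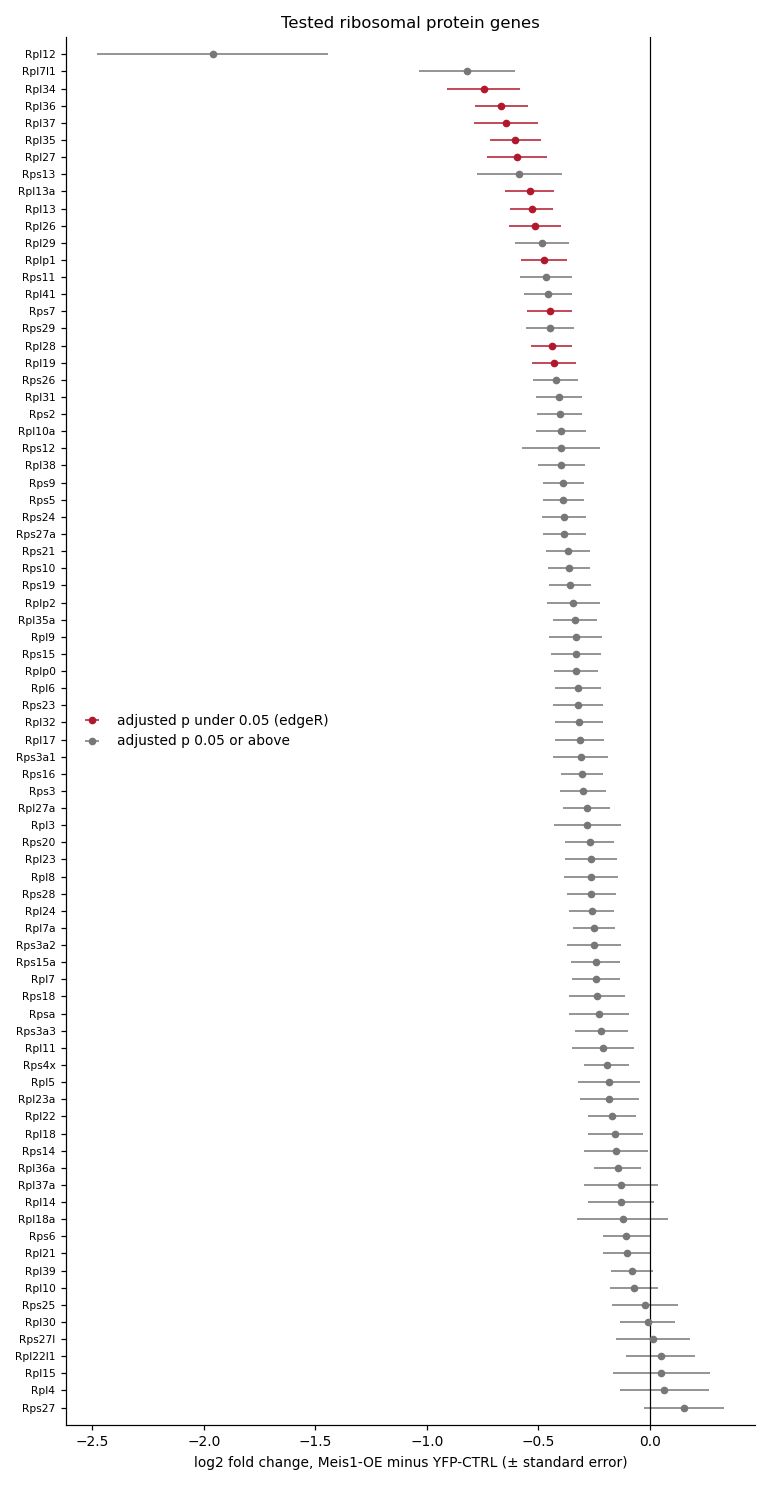
Log2 fold change of 80 of the 82 tested ribosomal protein genes (x axis, Meis1-OE minus YFP-CTRL, bars are standard errors) in order of size (y axis). Red points passed an adjusted p of 0.05 in edgeR; all but the 5 genes at the foot lie left of 0, and the most negative, Rpl12 at -1.96, has the widest bar and did not pass.

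The difference was present against each of the YFP-CTRL libraries, but unevenly. Against YFP-CTRL library A, all 3 Meis1-OE libraries were lower for 60 of the 82 members and higher for 12, where 39.5% of all tested genes were lower and 41.4% higher. Against library B these numbers were 71 and 3, where 35.5% of all genes were lower and 41.6% higher, and against library C they were 78 and 0. YFP-CTRL library C was above all 3 Meis1-OE libraries for 95.1% of the members, where 34.6% of all tested genes showed this. Within the YFP-CTRL condition the level was lowest in library A for 52 members, in library C for 20 and in library B for 10. Meis1-OE libraries differed little among themselves, with a median coefficient of variation of 3.97% over the members, against 8.58% between YFP-CTRL libraries. Over all tested genes the same measure was 8.68% and 20.7%.

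**Figure D2:**
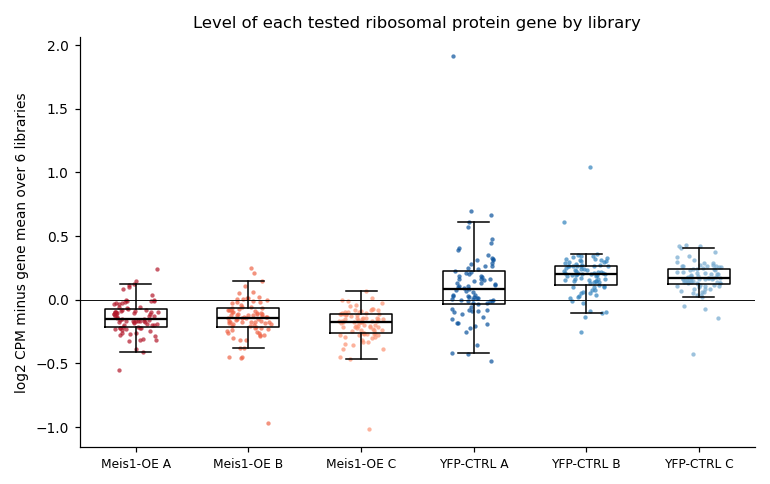
Level of each tested ribosomal protein gene in each library (y axis, log2 CPM minus the gene's mean over the 6 libraries); points are genes, boxes are quartiles with the median. Medians are -0.15, -0.14 and -0.17 for Meis1-OE and 0.083, 0.20 and 0.17 for YFP-CTRL (order A, B, C), where library A of YFP-CTRL spreads most widely.

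Together the members took 2.22%, 2.08% and 2.01% of all counts under Meis1-OE and 2.38%, 2.36% and 2.42% under YFP-CTRL. The means were 2.11% ± 0.108 and 2.38% ± 0.0280 (SD, n = 3 each). The conditions did not overlap, and an exact two-sided permutation test gave p = 0.1, the smallest that 3 libraries against 3 can give. A single noncoding gene, Gm26917, took 8.06% to 10.5% of the counts in Meis1-OE libraries and 11.8% to 14.1% in YFP-CTRL libraries. With its counts left out, the member share was 2.42%, 2.30% and 2.25% in Meis1-OE EC and 2.69%, 2.72% and 2.81% in YFP-CTRL EC.

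Of the 13 members called lower, 11 encode proteins of the large subunit and 2 of the small subunit. Rpl36, a large subunit protein gene, was at 184, 166 and 165 CPM under Meis1-OE and at 301, 275 and 242 CPM under YFP-CTRL. The highest Meis1-OE library was well below the lowest YFP-CTRL library, and the log2 fold change was -0.67 (edgeR adjusted p = 0.0232, standard error 0.12), a level 0.630 times that of YFP-CTRL EC. Its adjusted p lay between 0.000367 and 0.156 over the alternatives. Rpl35, whose protein sits beside the exit of the nascent peptide tunnel, was at 251, 255 and 240 CPM against 416, 382 and 336 CPM. The log2 fold change was -0.60 (edgeR adjusted p = 0.0272, standard error 0.11). Rpl37 was at 176, 176 and 164 CPM against 318, 265 and 224 CPM, a log2 fold change of -0.65 (edgeR adjusted p = 0.0433, standard error 0.14). In Rpl35, Rpl36 and Rpl37 alike, library A was the highest and library C the lowest of YFP-CTRL, and the Meis1-OE libraries stayed close together.

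Rpl13, the most abundant of the called genes by CPM, was at 563, 543 and 537 CPM under Meis1-OE and at 782, 825 and 763 CPM under YFP-CTRL. The log2 fold change was -0.53 (edgeR adjusted p = 0.0247, standard error 0.10), and the YFP-CTRL libraries lay close together, far above the Meis1-OE libraries. Rpl13a, which is also known as a regulator of the translation of inflammatory mRNAs, was at 255, 286 and 250 CPM against 382, 408 and 359 CPM, with a log2 fold change of -0.54 (edgeR adjusted p = 0.0331). Rplp1, one of the acidic proteins of the stalk that recruits elongation factors, was at 407, 403 and 409 CPM against 524, 606 and 565 CPM. Its log2 fold change was -0.47 (edgeR adjusted p = 0.0396, standard error 0.10). The Meis1-OE libraries differed by an SD of 3.34 CPM for Rplp1 and the YFP-CTRL libraries by 40.8 CPM.

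Rpl26, known for binding the mRNA of p53, was at 250, 251 and 254 CPM under Meis1-OE and at 393, 374 and 313 CPM under YFP-CTRL, a log2 fold change of -0.52 (edgeR adjusted p = 0.0453). Rps7, a small subunit gene whose protein binds Mdm2, was at 160, 174 and 176 CPM against 230, 245 and 220 CPM, a log2 fold change of -0.45 (edgeR adjusted p = 0.0459). Rpl28 and Rpl19, which are large subunit genes, completed the abundant part of the group with log2 fold changes of -0.44 and -0.43. Both had YFP-CTRL libraries within a narrow range, 447 to 470 CPM for Rpl28 and 587 to 629 CPM for Rpl19, above Meis1-OE ranges of 330 to 339 and 428 to 474 CPM. Rpl28 and Rpl19 were named after their values were seen.

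**Figure D3:**
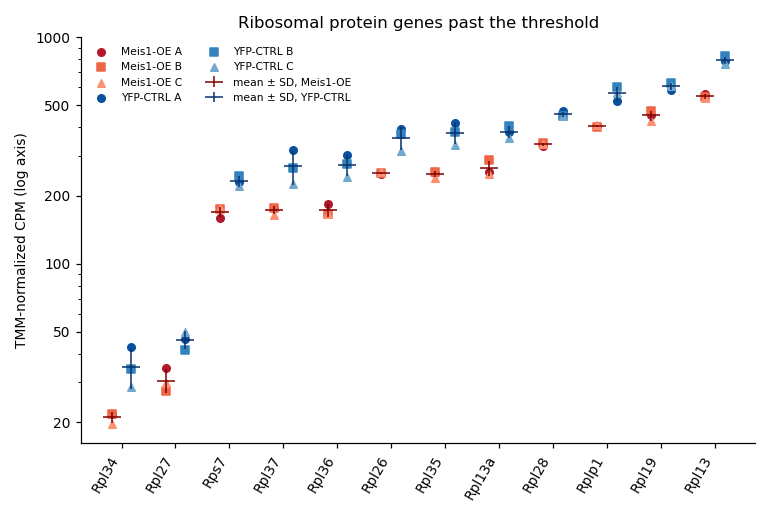
TMM-normalized CPM (y axis, log scale) of 12 of the 13 ribosomal protein genes past the threshold, by library (markers) with mean ± SD per condition. The Meis1-OE libraries (red) lie below the YFP-CTRL libraries (blue) for each gene shown, as the call made likely.

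Rpl34 and Rpl27 were the 2 called genes with low counts, and most reads of these families were placed elsewhere. Rpl34 was at 21.7, 21.7 and 19.6 CPM under Meis1-OE and at 42.7, 34.2 and 28.7 CPM under YFP-CTRL, the most negative log2 fold change among the calls at -0.74 (edgeR adjusted p = 0.0429). Rpl27 was at 34.5, 27.3 and 29.7 CPM against 46.7, 41.6 and 49.95 CPM, a log2 fold change of -0.60 (edgeR adjusted p = 0.046). Of the reads assigned to Rpl34 and its -ps rows together, 75.5% were on the -ps rows, and for Rpl27 this was 85.4%. With the -ps counts added, the log2 fold change was -0.61 for Rpl34 and -0.35 for Rpl27 (adjusted p = 0.0586 and 0.119 from edgeR), so neither passed.

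The starts of 10 members are shown for the TOP tract described above. RefSeq promoter entries on GRCm38.p6, the assembly of the mm10 build that the submitters' processing notes name, were found for 60 tested members, 10 of the called ones among them. Each line gives 30 bases on the gene's own strand, 10 before the annotated start and 20 from it, with the longest unbroken run of C and T in capitals. The first 5 genes were called lower and include long and short runs. The last 5 lines are the members with a positive log2 fold change, with 1 of the 2 annotated starts of Rps27l, the one with the longer run.
Rpl35, chr2:39005112-39005141, minus strand: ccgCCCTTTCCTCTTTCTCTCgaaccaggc
Rpl13a, chr7:45128726-45128755, minus strand: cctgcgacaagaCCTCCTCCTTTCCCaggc
Rpl28, chr7:4792955-4792984, plus strand: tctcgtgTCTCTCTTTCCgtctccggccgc
Rpl13, chr8:123102340-123102369, plus strand: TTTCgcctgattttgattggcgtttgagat
Rpl26, chr11:68901556-68901585, plus strand: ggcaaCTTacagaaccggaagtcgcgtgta
Rpl15, chr14:18270967-18270996, minus strand: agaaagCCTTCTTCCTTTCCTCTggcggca
Rps27, chr3:90213629-90213658, minus strand: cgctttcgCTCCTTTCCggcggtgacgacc
Rpl4, chr9:64173377-64173406, plus strand: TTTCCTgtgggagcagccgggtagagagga
Rpl22l1, chr3:28805498-28805527, plus strand: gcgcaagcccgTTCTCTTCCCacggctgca
Rps27l, chr9:66946076-66946105, plus strand: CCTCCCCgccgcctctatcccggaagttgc
The windows span the upstream flank and the first bases of the first exon. Rpl35, Rpl13a and Rpl28 carry runs of 18, 14 and 11 bases near the annotated start, while the longest run is 4 bases in Rpl13 and 3 in Rpl26. Among the members with positive values, Rpl15 and Rps27 have runs of 17 and 9 bases, Rpl22l1 one of 10, Rpl4 one of 6, and Rps27l 7 and 4 at its 2 starts. The called genes with an entry that are not printed are Rps7 and Rpl27 with 5 bases each, Rpl37 with 3, Rpl34 with 6 and 13 at 2 starts, and Rpl19 with 5 and 10 at 2 starts. A run of at least 8 bases, searched on the gene's strand alone, was found in 24 of the 60 members (40.0%) and in 13.0% of the 27025 genes with an entry. It was found in 5 of the 10 called members and in 19 of the 50 that were not called. These letters depend on where the start is annotated, and the difference between called and uncalled members was not tested.

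Members that did not pass included the most negative value over all 82. Rpl12, a large subunit protein of the stalk base, was at 33.6, 25.04 and 24.3 CPM under Meis1-OE and at 185, 101 and 36.5 CPM under YFP-CTRL. No libraries overlapped, but library C of YFP-CTRL lay near the Meis1-OE libraries and library A far above. The log2 fold change was -1.96 (edgeR adjusted p = 0.0673, standard error 0.52). It was -2.37 without YFP-CTRL library C (edgeR adjusted p = 0.0018), -1.34 without library A (0.120) and -0.37 once the proliferation score was a covariate (0.312). Rpl12 passed in DESeq2 (adjusted p = 0.000475) and without a filter on low counts in edgeR (0.0392). Its YFP-CTRL levels stood in the reverse order of the proliferation scores. Score and condition were hard to separate in the covariate fit, and the part of growth in this result was not tested.

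Rpl12 shared this order with Rpl7l1, a paralogue of Rpl7 that acts in assembly of the large subunit. Rpl7l1 was at 50.8, 48.3 and 53.4 CPM against 108, 102 and 60.1 CPM, a log2 fold change of -0.82 (edgeR adjusted p = 0.0673), which was -0.29 with the covariate. Rpl7 itself was at 397 ± 11.8 CPM against 470 ± 39.7 CPM (SD, n = 3 each), with a log2 difference of -0.24 (edgeR adjusted p = 0.204). Of the reads of both genes, Rpl7l1 held 11.7%, 10.6% and 11.8% in Meis1-OE libraries and 20.2%, 16.9% and 11.04% in YFP-CTRL libraries, so that library C fell within the Meis1-OE range.

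How reads divided between the other paralogues overlapped between the conditions. Rpl22l1 held 40.6%, 37.2% and 36.2% of the reads of Rpl22 and Rpl22l1 in Meis1-OE libraries and 30.5%, 35.9% and 36.4% in YFP-CTRL libraries. Rpl22 had a log2 fold change of -0.17 and Rpl22l1 of 0.05 (adjusted p = 0.362 and 0.878 from edgeR). Rps27l, a p53-inducible paralogue of Rps27, held 56.8%, 56.4% and 64.4% of the reads of the pair against 54.0%, 62.0% and 66.6%. Rps27l was at 0.02 and Rps27 at 0.15 on the log2 scale (adjusted p = 0.964 and 0.623 from edgeR). The testis-type paralogues Rpl10l and Rpl39l had 0 counts, and Rpl3l, the paralogue of heart and skeletal muscle, had 0, 1 and 5 counts in Meis1-OE libraries and 4, 0 and 2 in YFP-CTRL libraries. Rps4x, the X-linked gene of its family, was at -0.19 on the log2 scale (edgeR adjusted p = 0.265), and Rps4l had 0 counts.

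The stalk and the most abundant members had the same sign. Rplp0, the stalk scaffold and a common reference gene in qPCR, was at 694, 690 and 683 CPM under Meis1-OE and at 811, 895 and 890 CPM under YFP-CTRL. No libraries overlapped, and the log2 fold change was -0.33 (edgeR adjusted p = 0.0922, standard error 0.10). Rplp2, the partner of Rplp1, was at 215, 176 and 186 CPM against 226, 249 and 257 CPM, a log2 fold change of -0.34 (edgeR adjusted p = 0.128). Rps2, the highest member by CPM, was at 894, 828 and 895 CPM against 1121, 1208 and 1131 CPM, a log2 fold change of -0.40 (edgeR adjusted p = 0.0597). Rpsa, which is also known as a laminin receptor, was at 918, 898 and 872 CPM against 869, 1112 and 1163 CPM. Library A of YFP-CTRL lay below the Meis1-OE range for Rpsa, and the log2 fold change of Rpsa was -0.23 (edgeR adjusted p = 0.329).

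Genes in which mutations cause Diamond-Blackfan anemia, or whose products bind Mdm2, were followed as a list of 9 that does not hold every such gene. All 9 had negative log2 fold changes, as 77 of the 82 members did, and 1 of them, Rps7, passed the threshold. Rpl15 and Rps27, which are also known in that anemia, are not on the list and were among the 5 members with positive values, whereas Rpl26, Rpl27 and Rpl35, which are likewise known in it and not on the list, were called lower. Rps26, Rps24, Rps10 and Rps19 were at -0.42, -0.39, -0.36 and -0.36 (adjusted p = 0.0533, 0.0632, 0.0637 and 0.0666 from edgeR). Rps19, the gene most often mutated in that anemia, was at 256 ± 6.78 CPM against 329 ± 11.4 CPM (SD, n = 3 each). Rpl35a was at -0.33 (edgeR adjusted p = 0.0916). Rpl5 and Rpl11, whose proteins bind Mdm2 together with 5S rRNA, were at -0.18 and -0.21 (adjusted p = 0.440 and 0.381 from edgeR). Both Rpl5 and Rpl11 overlapped between the conditions, with Rpl5 at 33.1, 27.3 and 25.3 CPM against 34.4, 30.1 and 32.7 CPM.

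The lowest tested members by CPM were Rps13, Rpl29 and Rpl34. Rps13 was at 16.2, 12.8 and 12.1 CPM against 25.4, 17.5 and 18.7 CPM, a log2 fold change of -0.58 (edgeR adjusted p = 0.112). Rpl29, a large subunit protein, was at 20.1, 22.9 and 24.6 CPM against 31.2, 31.4 and 31.96 CPM, a log2 fold change of -0.48 (edgeR adjusted p = 0.0581). In both genes every Meis1-OE library was below every YFP-CTRL library.

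The 5 members with positive values were Rps27, Rpl4, Rpl15, Rpl22l1 and Rps27l, all between 0.02 and 0.15 and all overlapping between the conditions. Rpl4, Rpl15 and Rps27l are named because they make up this small group. Rpl4 was at 672, 734 and 714 CPM under Meis1-OE and at 506, 634 and 885 CPM under YFP-CTRL. Rpl15 was at 140, 156 and 142 CPM against 101, 132 and 189 CPM. For Rpl4 and Rpl15 library A was the lowest and library C the highest of YFP-CTRL, opposite to Rpl12 and Rpl7l1, and the Meis1-OE libraries fell between B and C of the YFP-CTRL condition. With the proliferation score as a covariate Rpl4 was at -0.34 and Rpl15 at -0.40 (adjusted p = 0.148 and 0.110 from edgeR).

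The genes of each subunit had the same median, and their order differed with the measure. Of 48 tested large subunit genes, 11 were called lower (22.9%) and 45 were negative. Of 34 small subunit genes, 2 were called lower (5.88%) and 32 were negative. Over all tested genes 2.73% were called lower. The median log2 fold change was -0.32 in both groups. At an unadjusted p under 0.05, 28 large subunit genes (58.3%) and 21 small subunit genes (61.8%) were lower, against 13.4% of all genes. Of the large and small subunit genes, 32 (66.7%) and 25 (73.5%) did not overlap between the conditions. Over all tested genes 15.9% were lower without overlap. The differences between the shares of the large and small subunit were not tested.

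Most members had counts that were not whole. The deposited counts are estimates, and 78 of the 82 tested members differed from a whole number by more than 1e-06 in some library. Which reads made them fractional was not tested. The 4 that were whole in all libraries were Rpl32, Rpl39, Rps15 and Rps21, which were named for that reason. Rpl32 was at -0.32, Rps15 at -0.33, Rps21 at -0.37 and Rpl39 at -0.08. In all 4 the Meis1-OE libraries lay below without overlap, as in 69.5% of the 82 members and 15.9% of all genes. In edgeR 0 of the 4 passed the threshold, where 15.9% of the members and 2.73% of all genes were called lower. At an unadjusted p under 0.05, 3 of the 4 were lower, as were 59.8% of the members and 13.4% of all genes. Rps21, for example, was at 67.6, 67.6 and 66.0 CPM against 92.3, 85.0 and 82.1 CPM.

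Of the tested members, 47 had counts on -ps rows of their own name. For 7 members, more than 50% of the pooled counts of the member and its -ps rows were on the -ps rows. Those shares were 94.1% for Rps12, 92.0% for Rps13, 89.2% for Rpl3, 85.4% for Rpl27, 83.5% for Rpl10, 75.5% for Rpl34 and 50.4% for Rpl31. These are multicopy families in which counting could split reads, so values of the single rows are uncertain. With the -ps counts added to each member, 13 members were again lower and 0 higher, against 2.72% of all genes lower, and 11 of them were the same genes. Rps12 (-0.46, adjusted p = 0.0463 from edgeR) and Rpl31 (-0.47, adjusted p = 0.0391 from edgeR) entered, and Rpl27 and Rpl34 left. The member share of counts then became 2.48%, 2.32% and 2.24% in Meis1-OE EC and 2.64%, 2.64% and 2.69% in YFP-CTRL EC. Rps3a1 and the RefSeq pseudogenes Rps3a2 and Rps3a3 summed to 291, 306 and 305 CPM against 315, 393 and 367 CPM.

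**Figure D4:**
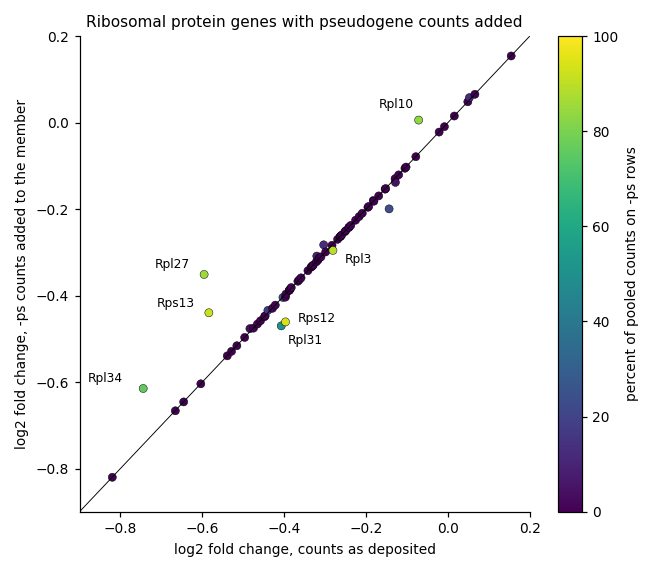
Log2 fold change of each tested ribosomal protein gene from the counts as deposited (x axis) and after the counts of its -ps rows were added (y axis), coloured by the percent of pooled counts on -ps rows; the line marks equal values and Rpl12 lies outside the plotted range. Most genes lie on the line, and Rpl27, Rps13, Rpl34 and Rpl10 move toward 0.

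Per kilobase of transcript, levels of the members should be read with those copies in mind. For the 78 tested protein-coding members with a length in the gene models, CPM per kilobase in YFP-CTRL EC ran from 21.7 (Rps13) to 1141 (Rplp1) with a median of 399. With the -ps counts added, the range was 22.6 (Rpl5) to 1527 (Rps2) with a median of 415. Rps13 moved from 21.7 to 257 CPM per kilobase, Rps12 from 68.0 to 1173 and Rpl3 from 45.9 to 423, whereas Rpl5 stayed at 22.6. Of the 78, 15 were under 100 CPM per kilobase as deposited and 10 with the -ps counts added. Lengths were medians over annotated coding transcripts of build NCBIM37.

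Other genes of the ribosome and of its production were compared from lists chosen by function. Of 48 ribosome assembly genes tested, 47 were negative. In edgeR 22 were called lower (45.8%, against 2.73% of all genes) and 0 higher. For 43 of them all Meis1-OE libraries lay below all YFP-CTRL libraries, where 15.9% of all genes showed this. The median log2 fold change was -0.70. With the proliferation score as a covariate this median was -0.43, beside -0.36 for the ribosomal protein genes. Npm1, a nucleolar chaperone of assembly, was at 346 ± 15.1 CPM in Meis1-OE EC against 557 ± 22.9 CPM under YFP-CTRL (SD, n = 3 each), with a log2 difference of -0.69 (edgeR adjusted p = 0.0116). Nop2, an rRNA methyltransferase, Dkc1, the pseudouridine synthase of box H/ACA particles, and Heatr1, a factor of early pre-rRNA processing, were at -0.84, -0.95 and -0.88, and Ncl and Polr1a at -0.62 and -0.52. The count of 22 fell to 0 when any 1 Meis1-OE library or YFP-CTRL library B was left out. Those fits called 0.0975% to 0.417% of all genes lower. Leaving out YFP-CTRL library A gave 14 assembly genes (29.2%, against 2.63% of all genes). Leaving out YFP-CTRL library C gave 41 (85.4%, against 15.2% of all genes). Scaling to library totals gave 5 (10.4%, against 1.12% of all genes). The proliferation score as a covariate gave 11 (22.9%, against 1.67% of all genes). DESeq2 called 38 lower (79.2%, against 6.13% of all genes). No test compared this list with the members.

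Translation factors and other TOP or snoRNA host genes were counted in the same way. In edgeR 2.73% of all genes were called lower. Of 35 initiation and elongation factors, 2 were lower (5.71%, Eif5a at -0.49 and Eef1g at -0.45) and 0 higher, with a median of -0.21. With DESeq2 7 were lower (20%, against 6.13% of all genes). Eef1a1, itself a TOP gene, was at -0.11 with an adjusted p of 0.629 from edgeR. Of 17 other TOP and snoRNA host genes, 2 were lower (11.8%) and 0 higher, with a median of -0.32. Eef1g is on both lists, and Npm1 is on the assembly and TOP lists. Of 5 further ribosomal protein genes whose symbols lie outside the rule, 1 was lower, Rack1, a WD-repeat protein of the small subunit. Rack1 was at 616, 577 and 590 CPM against 820, 889 and 789 CPM, a log2 fold change of -0.49 (edgeR adjusted p = 0.0373). Fau, which encodes a ribosomal protein fused to a ubiquitin-like protein, was at -0.26 (edgeR adjusted p = 0.140). With any 1 Meis1-OE library or YFP-CTRL library B left out, 0 translation factors and 0 other TOP or snoRNA host genes passed, nor did Rack1. With YFP-CTRL library C left out, 11 translation factors (31.4%) and 6 other TOP or snoRNA host genes (35.3%) were lower, against 15.2% of all genes. In that fit 0 translation factors and 1 other TOP or snoRNA host gene (5.88%) were higher, against 16.5% of all genes. No test compared these lists with the members.

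Of 17 genes of the mTORC1 pathway, Larp1 and the Myc family, 2 were lower (11.8%, against 2.73% of all genes) and 0 higher. Myc, a transcription factor that drives genes of ribosome production, was at 71.5, 60.8 and 64.4 CPM under Meis1-OE and at 284, 189 and 126 CPM under YFP-CTRL. The log2 fold change was -1.61 (edgeR adjusted p = 0.0201, standard error 0.28). It was -0.89 once that score was a covariate (edgeR adjusted p = 0.0175). The adjusted p of Myc ran from 0.0788 to 0.118 when single Meis1-OE libraries were left out, and was 0.0849 without YFP-CTRL library B. Larp1, which binds TOP mRNAs, was at 307, 314 and 318 CPM against 465, 492 and 388 CPM, a log2 fold change of -0.52 (edgeR adjusted p = 0.0471). It did not pass under 11 of the 16 alternatives, with adjusted p-values from 0.0504 to 0.228 in edgeR. Eif4ebp1, an mTORC1 substrate that blocks cap-dependent initiation, was at 119, 125 and 130 CPM against 320, 408 and 144 CPM, a log2 fold change of -1.22 (edgeR adjusted p = 0.0746). With YFP-CTRL library C left out, 8 genes of this list (47.1%) were lower, against 15.2% of all genes. DESeq2 called 5 lower (29.4%, against 6.13% of all genes). Whether levels of Myc, Larp1 or Eif4ebp1 bear on those of the ribosomal protein genes was not tested.

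**Figure D5:**
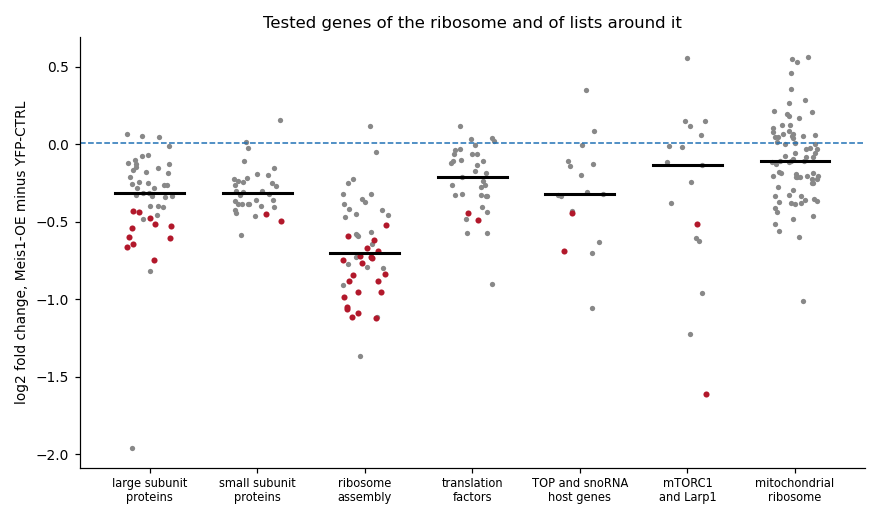
Log2 fold change (y axis, Meis1-OE minus YFP-CTRL) of the tested genes of each list (x axis); red points passed an adjusted p of 0.05 in edgeR, black bars are medians and the dashed line is the median of all tested genes. Medians are -0.32 for both ribosomal subunits, -0.70 for ribosome assembly, -0.21 for translation factors and -0.11 for mitochondrial ribosomal protein genes.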

How the data were processed

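RNA-seq of 6 libraries was analysed. The values are estimated counts per gene, which the authors deposited without normalization. The aligner, counter and annotation are not given in the sources used here, and the processing notes name mm10. All 6 sample columns were used. Columns carry letters A to C and labels carry replicate numbers, and nothing ties them together, so libraries are named by letter. Counts were rounded and compared in R 4.3.3 with edgeR 4.0.16 (TMM, filterByExpr, quasi-likelihood test, Benjamini-Hochberg adjustment over 16065 genes, threshold 0.05). The study used DESeq2, run here as an alternative (version 1.42.0). Standard errors were derived from the F statistic. Shares were tested by exact permutation in scipy 1.17.1. The programs were tested on simulated data. Alternatives covered scaling, filters, -ps counts, a replicate block, a proliferation covariate and each library left out. Gene symbols matched RefSeq GRCm38.p6. Genes were named by rule as up to 10 largest calls per direction, the stalk genes and Rpsa, paralogue pairs, 9 anemia or p53-related genes, and the 3 highest and 3 lowest members by CPM. Members and lists were chosen with earlier results of these data known. Some genes of the members and lists enter the counts but are not reported here by name.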

Additional observations from a re-analysis of the deposited data

How the results depend on the processing

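The count of 13 ribosomal protein genes lower in Meis1-OE EC became 0 on library totals, 6 without a filter (7.06% of members, 1.39% of all genes), 30 with DESeq2 and 0 once the proliferation score entered as a covariate. With a replicate block by column letter it was 1 (Rpl36), which is 1.22% of the members where 1.18% of all genes were lower. Block and pairing rest on letters alone, and the deviations of same-letter libraries from their condition means correlated at 0.245 for A, 0.190 for B and 0.081 for C across genes. Over the libraries left out in turn the count of members ran from 0 to 37, where 0.0975% to 15.2% of all genes were lower. The other alternatives gave 11 to 15, where 2.53% to 2.78% of all genes were lower. Under any alternative 0 members were higher. The median log2 fold change of -0.32 was -0.17 on library totals, where all genes moved to 0.15, and -0.36 with the covariate, and it ran from -0.36 to -0.28 over the libraries left out. The difference in member share, -0.279 percentage points, was -0.419 without Gm26917. The cause of these shifts was not tested. On library totals 67 of the 82 tested members were negative, against 77 with TMM. Of the members followed by name, Rpl10 turned sign on library totals (0.073) and with -ps counts (0.0058). Rpl39 (0.065) did so on library totals, as did Eef1a1 (0.035), which is not a member. With the covariate Rpl22l1, Rps27l, Rpl4 and Rpl15 were at -0.16, -0.30, -0.34 and -0.40. Over the libraries left out they ran from -0.11 to 0.15, from -0.11 to 0.20, from -0.11 to 0.30 and from -0.15 to 0.31, negative without YFP-CTRL library A and, for Rps27l, without library B (-0.041). None of these passed the threshold. For the 7 untested members a difference was not detectable at this depth.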

Other observations

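Genes of the mitochondrial ribosome, which is encoded separately from the cytosolic one, were measured in the same libraries. Of 78 tested, 0 were called lower or higher by edgeR, where 2.73% of all genes were called lower and 4.14% higher. At an unadjusted p under 0.05, 17 were lower (21.8%, against 13.4% of all genes) and 1 was higher. DESeq2 called 6 lower (7.69%, against 6.13% of all genes). The median log2 fold change was -0.11. In the lower direction 26 genes did not overlap between the conditions, where 15.9% of all genes did not. The lowest value was that of Mrps31, at 10.2, 9.89 and 10.6 CPM under Meis1-OE and 26.8, 23.4 and 11.7 CPM under YFP-CTRL (order A, B, C), a log2 fold change of -1.01 (adjusted p = 0.0803 from edgeR). As for Rpl12, library A was the highest and library C the lowest of YFP-CTRL. The highest was that of Mrpl41, at 0.56 (edgeR adjusted p = 0.149). With YFP-CTRL library C left out, 15 mitochondrial ribosomal protein genes (19.2%) were lower and 6 (7.69%) were higher, where 15.2% of all genes were lower and 16.5% higher. Mrps31 and Mrpl41 were named after their values were seen.

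Rows named as pseudogenes of ribosomal proteins held 0.229% to 0.255% of all counts in Meis1-OE libraries and 0.260% to 0.277% in YFP-CTRL libraries. Over all tested genes edgeR called 2.73% lower. Of 293 such rows, 33 were tested and 2 were lower. These were Rps12-ps3, at 414 ± 15.6 CPM against 571 ± 46.6 CPM (SD, n = 3 each), and Rpl31-ps8, at 99.0 ± 6.74 CPM against 143 ± 7.44 CPM. Their log2 fold changes were -0.46 and -0.53 (adjusted p = 0.0479 and 0.0319 from edgeR). Rpl10-ps3, at a log2 fold change of 0.02, overlapped between the conditions. Whether these reads came from the named rows or from the parent genes cannot be told apart in these counts.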
